A study of Danio rerio with 8 samples.

Results

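Ribosome biogenesis and RNA polymerase I genes were followed as the 52 rows, of 14781 in a table of read counts, whose gene symbol matched a fixed set of nucleolar names (nop, utp, rrp, nol, noc, imp and gnl genes, polr1 subunits, and single genes such as fbl, ncl, npm1, dkc1, bop1 and pes). Rows were picked by name alone, but the set of names was chosen with earlier results of these data known. RNA had been sequenced from tumour cells of transgenic zebrafish in 2 groups of 4 samples. The MYCN group held EGFP-positive neuroblastoma cells from MYCN transgenic fish, and the myrAKT group held mCherry-positive ganglioneuroma cells from myrAKT transgenic fish, which express AKT with a myristoyl anchor that holds this kinase at the membrane. Tumours of both groups were broken up mechanically and their cells sorted by fluorescence into Trizol-LS, and no treatment was recorded. Neuroblastoma and ganglioneuroma both arise in the sympathetic nervous system, and ganglioneuroma is the more differentiated. The labels give no promoter, AKT isoform, strain, age or number of fish per sample, and the p-values therefore cover only how far these samples spread. Genotype, tumour type and sorted fluorophore went together, so their parts cannot be told apart.

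Ribosomes are built in the nucleolus. RNA polymerase I transcribes a long precursor of the ribosomal RNAs, small nucleolar RNPs of the box C/D and box H/ACA kinds modify it, a large complex called the small-subunit processome folds and cleaves its first part, and a separate set of factors assembles the large subunit. MYC proteins are known to raise transcription of many of these genes, and signalling through AKT and mTOR is known to promote polymerase I activity. The 52 members were sorted by step into 4 polymerase I subunits, 5 box C/D and 4 box H/ACA core proteins, 19 processome factors, 16 large-subunit factors, 3 nucleolar scaffold proteins and nol4lb, which carries the nucleolar name without an established role in ribosome assembly.

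The libraries held between 25948623 and 55827123 counts. Catecholamine enzymes that define the labelled lineage were present in every library: dbh, which makes noradrenaline, was at 3595, 3625, 3131 and 3044 CPM, the usual per-million unit, with library sizes adjusted by TMM factors, in MYCN 1 to 4 and at 784, 1131, 1418 and 1659 CPM in myrAKT 1 to 4. Markers of other cells were far higher in the myrAKT libraries. The summed level of 9 leukocyte markers was 349 to 1096 CPM in MYCN and 15595 to 19304 CPM in myrAKT, that of 7 erythroid markers 58.8 to 147 CPM in MYCN and 3283 to 7785 CPM in myrAKT, that of 7 endothelial markers 5.37 to 15.3 CPM in MYCN and 327 to 499 CPM in myrAKT and that of 7 kidney tubule markers 7.08 to 25.0 CPM in MYCN and 1123 to 4170.0 CPM in myrAKT. All of these 30 markers were called higher in myrAKT, and none was at 0 in all libraries of a group. Among 7 glial markers 4 were called higher and 1 lower, the other 2 were not tested, and 1 was at 0 in every MYCN library. Sympathoadrenal markers summed to 9538 to 11439 CPM in MYCN and 2156 to 4796 CPM in myrAKT, with 11 of 14 lower, 1 higher and 2 not passing. Phox2bb, a transcription factor of the lineage, was at 503, 472, 483 and 348 CPM in MYCN and 46.4, 75.8, 104 and 129 CPM in myrAKT. Zebrafish mycn was at 0.359 ± 0.180 CPM in MYCN and 1.47 ± 0.369 CPM in myrAKT, and no row is named for a transgene, so this level checks no label. The part of blood, vessel and kidney cells in the member results was not tested, and in sorted bulk samples fewer cells of a type and less RNA per cell cannot be told apart.

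With TMM factors nearly the whole pathway was lower in the myrAKT libraries. Of the 52 members, all of which passed the filter on low counts, 50 fell, none rose and 2, nol10 and nol4lb, did not pass (edgeR quasi-likelihood test, adjusted p under 0.05 over all 12126 genes). Over all genes tested 38.4% were called lower and 37.6% higher. The members' median log2 fold change, myrAKT minus MYCN, was -1.64, beside -0.04 for all genes tested, and their range ran from -2.58 for gnl3 to -0.25 for nol10. A log2 fold change of -1 or lower was reached by 45 members and one of -2 or lower by 11, where 25.5% of all genes tested reached -1. Every MYCN library lay above every myrAKT library for 50 members, and for 36.3% of all genes tested. This direction depended on the scaling. When dbh and th counts set the scale, 5 members were lower and 6 higher, beside 8.46% and 68.6% of all genes tested. All 52 were below the median of all genes there too, an order that a change of scaling largely keeps by construction.

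**Figure D1:**
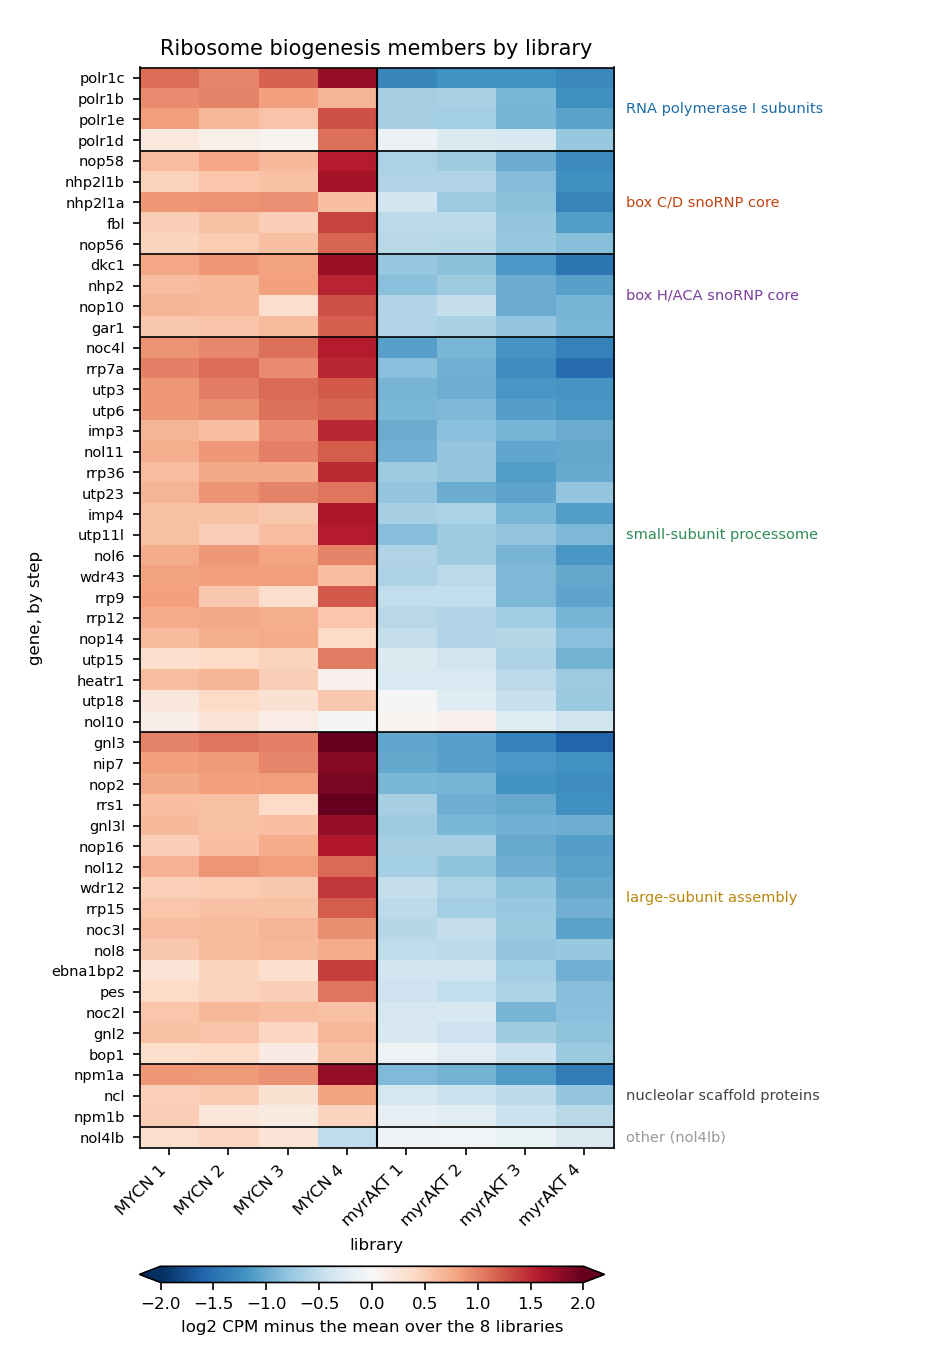
Level of each of the 52 members (rows, grouped by step) in each library (columns), as log2 CPM with TMM factors minus the mean of the gene over the 8 libraries; colours are capped at 2 and -2. The 4 MYCN columns lie above the 4 myrAKT columns for 50 members, nol10 and nol4lb being the exceptions, and MYCN 4 is the highest MYCN column for 42. When dbh and th set the scale, the median difference between the groups was -0.09.

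Of the polymerase I subunits, polr1b, polr1c, polr1d and polr1e were measured under these names, and all 4 fell with TMM factors. The same fit called 38.4% of all genes tested lower. Scaled on dbh and th the median log2 fold change of the 4 was -0.15. Polr1c and polr1d are the pair that polymerase I shares with polymerase III, and both are mutated in Treacher Collins syndrome in humans. Polr1c was at 78.8, 71.6, 81.7 and 121 CPM in the 4 MYCN libraries and at 14.7, 15.6, 15.7 and 14.9 CPM in the myrAKT libraries. Its groups were far apart, with MYCN 4 the highest library and the myrAKT libraries close together (log2 fold change -2.54 ± 0.18, SE, n = 4 per group; edgeR adjusted p = 1.2e-06). Its partner polr1d was at 13.2, 12.2, 11.8 and 24.4 CPM in MYCN and 10.5, 9.30, 9.07 and 6.71 CPM in myrAKT. The polr1d groups were close, with MYCN 3 just above myrAKT 1 (log2 fold change -0.79 ± 0.26, edgeR adjusted p = 0.020). That call ended without myrAKT 4 (adjusted p = 0.057), when plain totals replaced the TMM factors (adjusted p = 0.14) and with the replicate number as a block (adjusted p = 0.067). Polr1b, the second-largest subunit and part of the catalytic centre, was at 88.0, 91.3, 81.0 and 73.8 CPM in MYCN and 29.0, 29.4, 24.5 and 19.7 CPM in myrAKT. It fell by 1.70 on the log2 scale (edgeR adjusted p = 5.8e-06), and MYCN 4 was its lowest MYCN library. Polr1e, an accessory subunit, fell by 1.69 on the log2 scale.

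The ratio of polr1c to polr1d within a library does not depend on any scaling between libraries. There were on average 5.90 polr1c counts per polr1d count in MYCN and 1.73 in myrAKT, as geometric means not corrected for transcript length. The log2 ratio was 2.58, 2.56, 2.80 and 2.31 in MYCN 1 to 4 and 0.48, 0.75, 0.79 and 1.14 in myrAKT 1 to 4, so the groups did not overlap (exact permutation p = 0.029, two-sided, n = 4 per group, adjusted p = 0.043 over 9 pairs). An exact p of 0.029 is the smallest that 4 against 4 allows. Of the 9 pairs 6 were at it, and they share the adjusted p of 0.043. The pairs were chosen with earlier results of these data known. Their p-values, here and below, are therefore no independent support. How often the ratios of other gene pairs separate was not tested, and 76.0% of all genes tested were called in either direction.

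Other polymerase I factors came from a list that the naming pattern did not cover. Subunits znrd1 and twistnb, now called polr1h and polr1f, fell, with log2 fold changes of -1.95 and -1.71. Taf1a and taf1b, which belong to the promoter selectivity factor that brings polymerase I to ribosomal DNA, fell too, at -1.61 and -1.603. The upstream binding factor ubtf, an HMG-box protein that covers the ribosomal DNA repeat, was at 246, 245, 229.9 and 197 CPM in MYCN and 245, 238, 232 and 217 CPM in myrAKT. Its groups overlapped (log2 fold change 0.02 ± 0.11, edgeR adjusted p = 0.86). Its relative ubtfl went from 49.4 ± 2.89 (SD, n = 4) to 71.1 ± 2.42 CPM, a rise of 0.52 on the log2 scale (edgeR adjusted p = 9.3e-04). Ptrfb is named for release of polymerase I transcripts but better known as a caveola coat protein of vessels and muscle. It rose from 7.49 ± 0.691 to 15.3 ± 1.13 CPM. Endothelial markers rose in the same libraries, and a link to ptrfb was not tested.

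**Figure D2:**
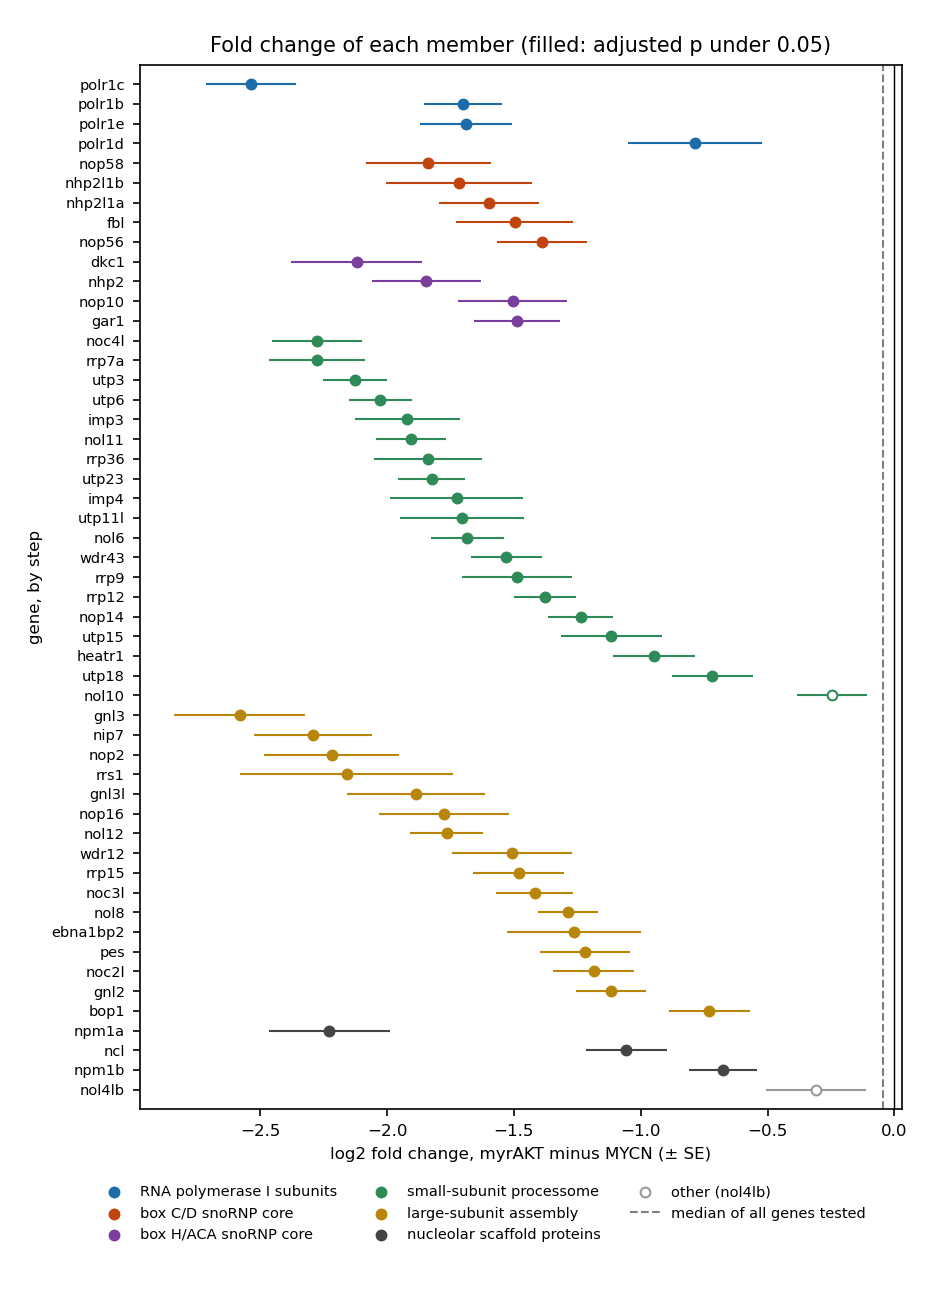
Log2 fold change (myrAKT minus MYCN, TMM factors, horizontal axis) of each member with its SE, grouped and coloured by step; filled points passed adjusted p under 0.05 and the dashed line is the median of all genes tested, -0.04. All points lie left of 0 with these factors, from gnl3 at -2.58 to nol10 at -0.25; scaled on dbh and th 27 of the 52 were below 0.

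Box C/D snoRNPs guide 2'-O-methylation of ribosomal RNA, and their core is the methyltransferase fibrillarin with nop56, nop58 and a small RNA-binding protein that fish carry as nhp2l1a and nhp2l1b. All 5 core genes fell with TMM factors, with log2 fold changes between -1.84 and -1.39, where 38.4% of all genes tested were called lower. Their median was -1.60, and -0.05 when scaled on dbh and th. Fbl, which encodes fibrillarin, was at 434, 460.0, 434 and 788 CPM in MYCN and 214, 214, 179.9 and 142 CPM in myrAKT. Here MYCN 4 stood well above MYCN 1 to 3, and the groups did not overlap (log2 fold change -1.50 ± 0.23, edgeR adjusted p = 2.2e-04). Nop58 was at 461, 515, 473 and 892 CPM in MYCN and 194, 184, 152 and 125 CPM in myrAKT, with the same high library (log2 fold change -1.84 ± 0.25, edgeR adjusted p = 8.2e-05). Its partner nop56 was at 579, 606, 646 and 951 CPM in MYCN and 289, 286, 252 and 235 CPM in myrAKT (log2 fold change -1.39 ± 0.18, edgeR adjusted p = 6.4e-05). The nop56 to nop58 ratio was 1.21 in MYCN and 1.64 in myrAKT without overlap (exact permutation p = 0.029, adjusted p = 0.043 over 9 pairs). Nhp2l1a fell from 25.3 ± 2.49 to 8.33 ± 2.19 CPM and nhp2l1b by 1.72 on the log2 scale; they are close paralogs, and reads shared between them could have been counted either way.

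Box H/ACA snoRNPs turn uridine into pseudouridine, and their core is dyskerin with nhp2, nop10 and gar1. All 4 fell with TMM factors, with log2 fold changes between -2.12 and -1.49, where 38.4% of all genes tested were called lower. Their median was -1.68, and -0.13 when scaled on dbh and th. Dkc1, which encodes the pseudouridine synthase dyskerin and is mutated in human dyskeratosis congenita, was at 345, 369, 353 and 672 CPM in MYCN and 120.3, 114, 91.3 and 74.1 CPM in myrAKT. MYCN 4 was its highest library and myrAKT 4 its lowest, and the groups did not overlap (log2 fold change -2.12 ± 0.26, edgeR adjusted p = 4.3e-05). Nhp2 was at 118, 122, 135 and 221 CPM in MYCN and 43.3, 47.1, 38.9 and 36.5 CPM in myrAKT (log2 fold change -1.85 ± 0.21, edgeR adjusted p = 3.1e-05). Gar1, which releases the modified RNA, fell from 125 ± 29.0 to 44.4 ± 4.16 CPM (edgeR adjusted p = 2.7e-05). For dkc1 over nhp2 the ratio was 2.90 in MYCN and 2.38 in myrAKT, and the groups overlapped (exact permutation p = 0.057, adjusted p = 0.073 over 9 pairs).

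Of the 19 factors of the small-subunit processome 18 fell and nol10 did not pass, where 38.4% of all genes tested were called lower. With TMM factors their median log2 fold change was -1.70, with noc4l and rrp7a at -2.28 at one end. Utp18 at -0.72 and nol10 at -0.25 were at the other. Scaled on dbh and th the median was -0.17. Utp3, a processome protein also known as Sas10, was at 139, 154, 166 and 178 CPM in MYCN and 39.7, 38.5, 34.0 and 33.4 CPM in myrAKT. Both groups were tight and more than 3-fold apart at their nearest libraries (log2 fold change -2.13 ± 0.13, edgeR adjusted p = 4.0e-07). Utp6, another processome protein, was at 108, 113, 127 and 132 CPM in MYCN and 31.5, 31.9, 27.7 and 26.4 CPM in myrAKT (log2 fold change -2.03 ± 0.12, edgeR adjusted p = 4.8e-07).

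Wdr43 and heatr1 belong to the early processome module that joins the precursor while it is still being transcribed, and both are known from zebrafish mutants. Wdr43 was at 429.5, 441, 441 and 377 CPM in MYCN and 160.5, 169, 133 and 121 CPM in myrAKT. Heatr1 was at 282, 295, 260.2 and 196 CPM in MYCN and 149, 149, 127 and 111 CPM in myrAKT. In both genes MYCN 4 was the lowest MYCN library, but no myrAKT library reached it (log2 fold change -1.53 ± 0.14 for wdr43, edgeR adjusted p = 5.8e-06, and -0.95 ± 0.16 for heatr1, edgeR adjusted p = 4.3e-04). Rrp12, an export and assembly factor, was at 367, 373, 362 and 322 CPM in MYCN and at 149.5, 147, 136 and 115 CPM in myrAKT, again with MYCN 4 lowest in its group. Nol10, the counterpart of yeast Enp2, was at 62.9, 69.0, 63.4 and 56.6 CPM in MYCN and 59.7, 60.9, 48.4 and 43.4 CPM in myrAKT. Its groups overlapped, myrAKT 1 and 2 lying among the MYCN libraries (log2 fold change -0.25 ± 0.14, edgeR adjusted p = 0.13).

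All 16 large-subunit factors fell with TMM factors, where 38.4% of all genes tested were called lower. Their median log2 fold change was -1.49, and 0.06 when scaled on dbh and th. Gnl3, the nucleolar GTPase nucleostemin, was at 311, 330.0, 315 and 624 CPM in MYCN and 76.2, 73.7, 61.7 and 52.4 CPM in myrAKT. It had the largest fold change among the members, 5.99-fold lower, and MYCN 4 stood well above the other MYCN libraries (log2 fold change -2.58 ± 0.26, edgeR adjusted p = 1.2e-05). Its relative gnl3l fell by 1.89 on the log2 scale, and the ratio of gnl3 to gnl3l went from 2.63 to 1.58 without overlap (exact permutation p = 0.029, adjusted p = 0.043 over 9 pairs). Rrs1, which brings the 5S RNA particle to the growing subunit, had the largest SE of the members and was at 106, 104, 91.5 and 343 CPM in MYCN and 43.9, 35.4, 34.7 and 29.9 CPM in myrAKT. It is outside the rule for named genes and was chosen for that SE. MYCN 4 was more than 3-fold above the next library, and the log2 fold change of -2.16 ± 0.42 was -1.49 without it.

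Bop1, pes and wdr12 form the PeBoW complex, which is needed to process the large-subunit RNA, and pes, or pescadillo, was found in a zebrafish mutant. Pes was at 196, 205, 210.3 and 312 CPM in MYCN and 112, 106, 96.1 and 82.6 CPM in myrAKT. Wdr12 was at 61.0, 62.8, 63.8 and 117 CPM in MYCN and 31.8, 28.7, 25.1 and 21.5 CPM in myrAKT, and bop1 at 119.5, 124, 105 and 140.4 CPM in MYCN and 87.3, 81.5, 69.5 and 56.2 CPM in myrAKT. None of the 3 overlapped between groups with TMM factors, and 36.3% of all genes tested had every MYCN library above every myrAKT library. Bop1 had the smallest difference of the 16 large-subunit members. The log2 fold changes were -1.22 ± 0.18 for pes, -1.51 ± 0.24 for wdr12 and -0.73 ± 0.16 for bop1 (edgeR adjusted p = 1.4e-04, 2.4e-04 and 0.0020). Scaled on dbh and th they were 0.33, 0.059 and 0.84. Bop1 counts per pes count were 0.536 in MYCN and 0.738 in myrAKT, without overlap (exact permutation p = 0.029, adjusted p = 0.043 over 9 pairs). Ebna1bp2, a scaffold of early large-subunit particles, was at 73.2, 82.1, 76.0 and 158 CPM in MYCN and 46.5, 46.5, 37.8 and 31.0 CPM in myrAKT, with MYCN 4 again high (edgeR adjusted p = 0.0016). Nol12, an RNA-binding nucleolar protein, fell from 65.6 ± 8.53 to 19.3 ± 2.38 CPM and nol8 from 58.3 ± 3.30 to 23.9 ± 2.44 CPM. Neither gene overlapped between the groups.

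The nucleolar scaffold genes took the most counts of the members, between 34.8% and 40.2% of them per library, not corrected for length. Nucleolin, encoded by ncl, coats nascent ribosomal RNA and was at 2603, 2702, 2312 and 3273 CPM in MYCN and 1469, 1385, 1298 and 1084 CPM in myrAKT. Its MYCN libraries were all above its myrAKT libraries (log2 fold change -1.06 ± 0.16, edgeR adjusted p = 1.7e-04). Npm1a, a nucleophosmin that keeps the outer layer of the nucleolus together, was at 1436, 1426, 1485 and 2664 CPM in MYCN and 427, 412, 359 and 299 CPM in myrAKT. Its paralog npm1b was at 55.2, 46.9, 44.7 and 53.5 CPM in MYCN and 35.0, 34.1, 29.3 and 26.8 CPM in myrAKT. Neither overlapped, but the gap was wide for npm1a and narrow for npm1b (log2 fold change -2.23 ± 0.24, edgeR adjusted p = 1.9e-05, and -0.68 ± 0.13, edgeR adjusted p = 0.0011), and the npm1b call ended with library totals (adjusted p = 0.063). Every MYCN library was above every myrAKT library for 36.3% of all genes tested. Scaled on dbh and th the median of the scaffold genes was 0.49, and npm1b was called higher at 0.86. There were 33.8 npm1a counts per npm1b count in MYCN and 11.9 in myrAKT, with log2 ratios of 4.70, 4.93, 5.05 and 5.64 in MYCN and 3.61, 3.59, 3.61 and 3.48 in myrAKT. That is a 2.84-fold change of the ratio without overlap (exact permutation p = 0.029, adjusted p = 0.043 over 9 pairs). How reads that fit both paralogs were counted is not given in the sources used here. Fbl per ncl went from 0.189 to 0.142 (exact permutation p = 0.029, adjusted p = 0.043 over 9 pairs), while imp3 per imp4 and noc2l per noc3l overlapped between groups (exact permutation p = 0.26 and 0.11, adjusted p = 0.26 and 0.13).

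Nol4lb was at 25.7, 27.0, 24.3 and 14.2 CPM in MYCN and 19.2, 19.4, 18.5 and 16.5 CPM in myrAKT. MYCN 4 lay below all myrAKT libraries and MYCN 1 to 3 above them, and the gene did not pass (log2 fold change -0.31 ± 0.20, edgeR adjusted p = 0.18). Without MYCN 4 it was called lower (log2 fold change -0.49, edgeR adjusted p = 0.0013).

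With TMM factors library MYCN 4 stood apart in these genes, and unevenly so. Its CPM was divided by the mean of MYCN 1 to 3 for each member: the median log2 ratio was 0.61, beside -0.03 over all genes tested, and MYCN 4 was the highest MYCN library for 42 of 52 members (80.8%, against 38.9% of all genes tested). The median was 0.83 for box C/D, 0.77 for box H/ACA and 0.77 for large-subunit genes but 0.23 for the processome. Members at both ends are named here after their values were seen. The 4 highest ratios were 1.77 for rrs1, 1.15 for gnl3l, 1.13 for nhp2l1b and 1.08 for nop2, a ribosomal RNA methyltransferase. The ratio was below 0 for 9 members, nol4lb at -0.86, heatr1 at -0.51, nop14 at -0.31, nhp2l1a at -0.30, polr1b at -0.23, wdr43 at -0.21, nol10 at -0.20, rrp12 at -0.19 and noc2l at -0.02. Ribosomal protein genes were also higher there, at a median log2 ratio of 0.60 and 34.2% of all counts, against 25.0% to 31.3% in MYCN 1 to 3. Leukocyte markers summed to 1096 CPM in MYCN 4 and to between 349 and 623 CPM in the other MYCN libraries, and erythroid markers to 58.8 CPM against 137 to 147 CPM. Their part in the difference was not tested, and transcript length was not analysed here. MYCN 4 had the lowest TMM factor, 0.747 beside 0.835, 0.905 and 1.04 in MYCN 1 to 3. A lower factor raises every CPM of a library. As unscaled shares of all counts, the members were at 0.925%, 1.04%, 1.14% and 1.24% in MYCN 1 to 4, a smaller step. Over all genes, chi-square per degree of freedom was 235 to 286 for MYCN pairs with MYCN 4 and 50.8 to 125 for the others. Without MYCN 4, 51 members were called lower, with 40.8% of all genes (80.9% in either direction), and the members' median was -1.42.

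**Figure D3:**
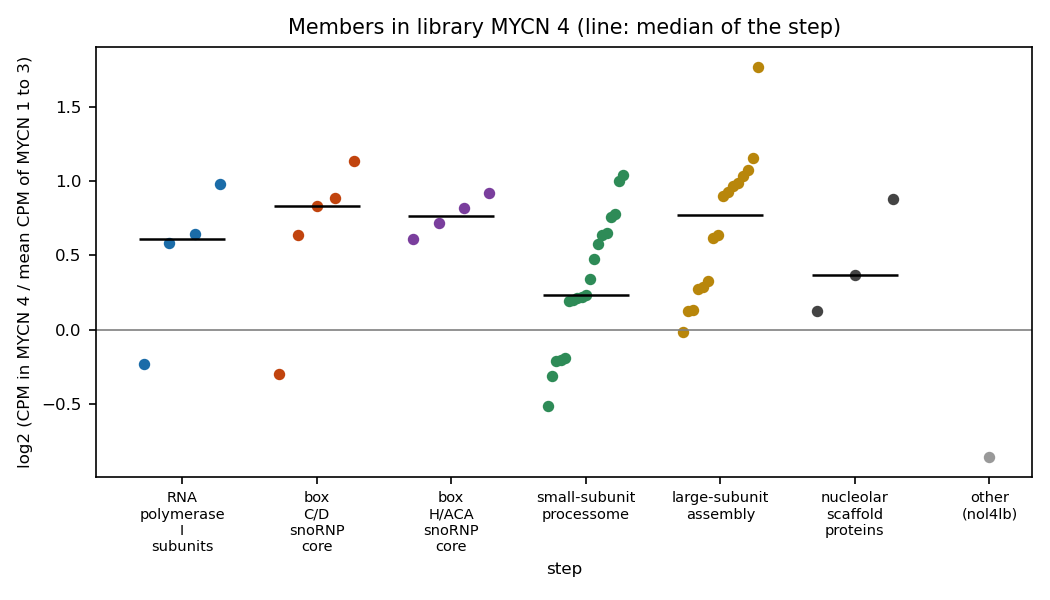
Log2 ratio of the CPM in MYCN 4 to the mean CPM of MYCN 1 to 3 (vertical axis) for each member, by step (horizontal axis); each point is a gene and lines are medians of steps with several genes. Values run from 1.77 for rrs1 to -0.86 for nol4lb, and the processome spans both sides of 0, from 1.04 to -0.51.

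Within the myrAKT group the members were lowest in myrAKT 4 for 44 of 52 genes (84.6%, against 33.3% of all genes tested). MyrAKT 4 had the fewest counts, 25948623, and the highest TMM factor of the libraries, 1.217, which lowers every CPM of that library. As unscaled shares of all counts, the members were at 0.544%, 0.533%, 0.479% and 0.441% in myrAKT 1 to 4. The median log2 CPM of the members was 5.34, 5.28, 5.08 and 4.86 in myrAKT 1 to 4, beside 6.59, 6.63, 6.50 and 7.16 in MYCN 1 to 4. The catecholamine enzymes went the other way among the same libraries: dbh and th together took 0.163% and 0.229% of all counts in myrAKT 1 and 2 and 0.303% and 0.391% in myrAKT 3 and 4. Erythroid markers summed to 7785 and 6244 CPM in myrAKT 1 and 2 and to 3283 and 3784 CPM in myrAKT 3 and 4. Leukocyte markers summed to 19304, 18956, 16183 and 15595 CPM in myrAKT 1 to 4. Endothelial markers were higher in myrAKT 3 and 4, at 327, 330, 499 and 447 CPM in myrAKT 1 to 4. Kidney tubule markers were at 2629, 1123, 4170 and 3359 CPM. The part of these cells in the order of the libraries was not tested. Per 100 counts of dbh and th there were 335, 233, 158 and 113 member counts in myrAKT 1 to 4, against 178, 189, 199 and 252 in MYCN 1 to 4. These ratios overlapped between the groups, and the myrAKT libraries spread over a wider range than the MYCN libraries.

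**Figure D4:**
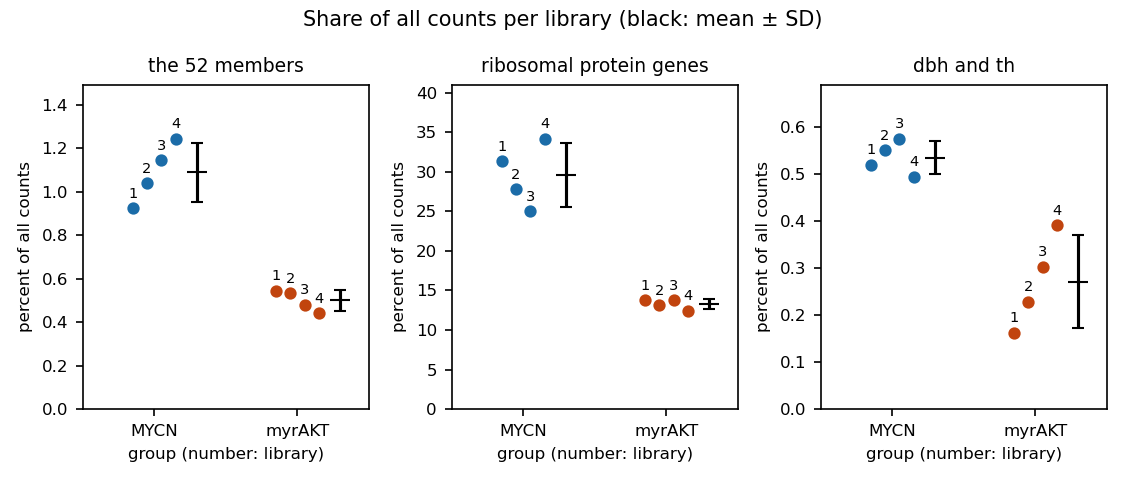
Share of all counts, in percent, taken by the 52 members (left), by 80 cytosolic ribosomal protein genes (middle) and by dbh and th (right) in each library; points are libraries with their number, bars are mean ± SD. All shares are lower in myrAKT, and among the myrAKT libraries number 4 has the lowest member share, 0.441%, and the highest dbh and th share, 0.391%.

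The summed share of the members was 1.09 ± 0.137% of counts for MYCN and 0.499 ± 0.0483% for myrAKT (SD, n = 4 each). In MYCN 1 to 4 the shares were 0.925%, 1.04%, 1.14% and 1.24%, and in myrAKT 1 to 4 they were 0.544%, 0.533%, 0.479% and 0.441%, so the groups did not overlap. Member counts per 100 counts of ribosomal protein genes were 3.73 ± 0.664 in MYCN and 3.76 ± 0.285 in myrAKT, which differ by less than the spread between libraries.

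The scaling between libraries set the size of the difference and, for some members, its sign. Library totals moved the median of all genes tested from -0.04 to 0.34 and that of the members from -1.64 to -1.26, and 47 members were then lower and none higher (27.6% and 45.4% of all genes, 73.0% in either direction). Libraries were also scaled on the summed counts of dbh and th, which fixes these transcripts of the labelled lineage near 0 by construction. With TMM factors dbh was at -1.42, th at -1.33 and phox2bb at -2.35. The 14 sympathoadrenal markers had a median of -2.14 there, from -5.51 to 0.95. Other lineage genes were not tried as the reference. Scaled on dbh and th, the median of all genes was 1.45 and that of the members -0.09. Lower under that scaling were polr1c, gnl3, nip7, noc4l and rrp7a, and higher were nol10, nol4lb, npm1b, utp18, bop1 and polr1d, with 8.46% of all genes lower and 68.6% higher, 77.1% in either direction. The other 41 members did not pass. Those of the 11 that the rule for named genes does not cover, nip7, noc4l, rrp7a and utp18, were named after their values were seen. All 52 members were below the median of all genes tested under each of the 3 scalings. A change of scaling moves every gene by nearly the same amount. This order is therefore kept largely by construction and is no separate support.

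**Figure D5:**
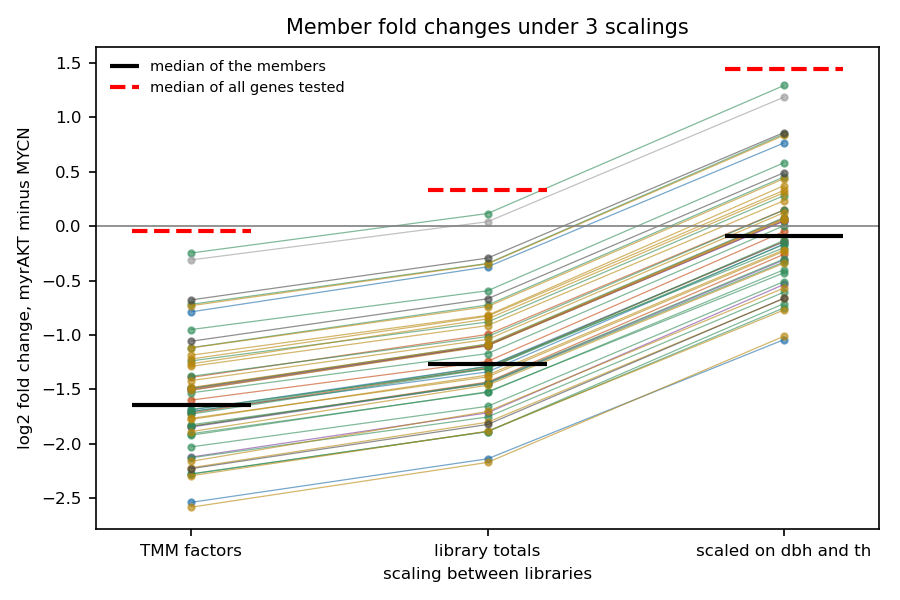
Log2 fold change (myrAKT minus MYCN, vertical axis) of each member under TMM factors, library totals and scaling on dbh and th (horizontal axis); thin lines join a gene and are coloured by step, black bars are medians of the members and red dashed bars medians of all genes tested. The members' median moves from -1.64 to -1.26 and -0.09, and that of all genes from -0.04 to 0.34 and 1.45.

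Most genes of the same pathway that the names did not catch were lower too. Of 118 such factors measured, from 155 listed, 111 fell, 2 rose and 5 did not pass. Their median log2 fold change was -1.35 under TMM factors. The same fit called 38.4% of all genes tested lower and 37.6% higher. Of the small-subunit factors 39 of 40 fell, among them emg1, a ribosomal RNA methyltransferase, at -2.30 and nat10, an acetyltransferase of ribosomal RNA, at -1.92. Large-subunit factors fell in 35 of 37 cases, with nmd3, the export adaptor of the large subunit, at -2.35 and sbds, mutated in Shwachman-Diamond syndrome, at -0.72. All 13 genes of snoRNP assembly and other nucleolar factors fell, nolc1, a chaperone of snoRNPs, at -1.598, and so did 20 of 21 exosome and RNA-trimming genes. These examples were chosen after their values were seen. Subunits listed under polymerase II, some of which polymerase I also uses, fell in 9 of 11 cases with a median of -1.06. They ran from -1.79 for polr2h to -0.26 for polr2b, which did not pass. Those of polymerase III and its factors fell in 11 of 14 tested, with a median of -1.61. Cytosolic ribosomal protein genes were lower in 79 of 80 cases with a median of -1.56, and mitochondrial ones in 65 of 68 with a median of -1.32. No test was made of a difference between these groups and the members. Scaled on dbh and th, 11 of the 143 tested genes of all pathway lists, polymerases II and III included, were lower and 30 higher, where 8.46% of all genes tested were lower and 68.6% higher.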

How the data were processed

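RNA from 8 samples, 4 per group, was sequenced. The authors deposited raw read counts per gene symbol, whole numbers in 14781 rows. The submitters' processing notes name GRCz10 and, with no role stated, HTSeq 0.6.1, TopHat2 2.1.1, FastQC 0.11.5, edgeR, SAMtools 1.5 and Trim Galore 0.4.4. The annotation, the strand setting and how multi-gene reads were handled were not given in the sources used here. The labels call the molecule polyA RNA, while their protocol describes removal of ribosomal RNA.

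Groups came from the sample titles. Counts were fitted in edgeR 4.0.16 (R 4.3.3) with filterByExpr by group, TMM factors and the robust quasi-likelihood F test, two-sided, and p-values were adjusted by Benjamini-Hochberg over 12126 genes. The SE of a log2 fold change was its size divided by the square root of F. CPM were computed from TMM-scaled library sizes. Ratios of 9 gene pairs within a library (pseudocount 0.5) were compared by exact two-sided permutation. For 1 more pair polr1a was needed, and no row of the counts has that name. Alternatives used 4 other scalings, 2 other filters, DESeq2 1.42.0, limma 3.58.1 (voom), the replicate number as a block, and each library left out. On simulated data of 12057 genes the fit called 7 unchanged genes. It found 50 of 100 genes with a 2-fold change and 88 of 99 with a 4-fold change. Few genes were changed there, evenly up and down, whereas 76.0% of the genes tested were called in the real data. The simulation therefore cannot give the rate of false calls here or cover the dependence on scaling. Within groups, pairs of libraries differed by far more than counting noise (chi-square per degree of freedom 21.2 to 286), so none was a duplicate.

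The members, lists and pairs were chosen with earlier results of these data known. Genes named were a fixed set of core factors, the 2 members per step with the smallest adjusted p, members that rose or did not pass, the extremes of log2 fold change, dbh, th, phox2bb, mycn, and pathway genes that rose; others are marked as chosen after their values were seen, or are named as ends of a range or as the rest of a step or pair. All 52 member symbols matched RefSeq's GRCz12tu gene table, 3 of them under an older symbol, and no 2 of them were neighbours there; this differs from the files' build, so no coordinates are given. Of 194 pathway symbols 146 were found, 3 by an older symbol.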

Additional observations from a re-analysis of the deposited data

Results flagged for a closer look

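Among 104 groups of 4 values (52 members in 2 groups), 24 held a library that stood apart from the next. Its gap on the log2 scale, as a share of the group's range, was past Dixon's critical value. Chance gives about 1 in 20 on average, or 5.2. Members vary together over the same libraries, so the groups are not independent and 5.2 is no test of the 24. The share over all genes tested is not given here. All 24 were in MYCN 4, which was the high library in 21 and the low one in 3. The values tested were log2 CPM with TMM factors, and MYCN 4 had the lowest factor of the libraries, 0.747. The flags therefore depend on that scaling and on the log2 scale, and no other choice is given for them. The low values were wdr43 at 377 CPM, nhp2l1a at 21.6 CPM and nol4lb at 14.2 CPM. In the processome and polymerase I the high values were rrp36 at 69.7 CPM, utp11l at 65.9 CPM, utp15 at 109.6 CPM, imp4 at 138 CPM and polr1d at 24.4 CPM. Among snoRNP and scaffold genes they were fbl at 788 CPM, nop58 at 892 CPM, nhp2l1b at 356 CPM, dkc1 at 672 CPM, gar1 at 168 CPM and npm1a at 2664 CPM. Among large-subunit factors they were gnl3 at 624 CPM, gnl3l at 261 CPM, rrs1 at 343 CPM, nop2 at 482 CPM, nip7 at 117 CPM, wdr12 at 117 CPM, pes at 312 CPM, ebna1bp2 at 158 CPM, noc3l at 107 CPM and rrp15 at 112 CPM.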

How the results depend on the processing

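Under upper-quartile factors, DESeq2 size factors, both other filters, DESeq2's test and limma voom, 50 members were lower and none higher. Across these fits 4354 to 4829 of all genes were lower and 4160 to 4883 higher, out of 11118 to 14049 tested. With library totals 47 members were lower, and pathway genes called higher went from 3 to 5. The members' median log2 fold change moved there to -1.26, and nol10 and nol4lb turned to 0.12 and 0.042. Scaled on dbh and th, 5 members were lower and 6 higher, 1026 genes of all tested lower and 8319 higher, and 11 pathway genes lower and 30 higher, with a member median of -0.088. Named members that turned positive there were polr1d at 0.77, ncl at 0.49, fbl at 0.074, npm1b at 0.86, nop56 at 0.15, heatr1 at 0.58, wdr43 at 0.0049, wdr12 at 0.059, bop1 at 0.84, pes at 0.33, rrp12 at 0.15, ebna1bp2 at 0.31, gar1 at 0.047, nol8 at 0.23, nol10 at 1.29 and nol4lb at 1.19; that scaling sets dbh and th as the reference by construction. Leaving out 1 library gave 49 to 51 members lower, none higher, and a median between -1.72 and -1.42, with 4449 to 5043 of all genes lower and 4389 to 4945 higher. Without 1 library the pair ratios differed by -1.63 to -1.32 (npm1a/npm1b), -0.80 to -0.66 (gnl3/gnl3l), 0.37 to 0.50 (nop56/nop58), -1.89 to -1.67 (polr1c/polr1d), 0.38 to 0.52 (bop1/pes) and -0.47 to -0.30 (fbl/ncl), and 3 against 4 cannot go below an exact p of 0.057. Libraries sharing a replicate number did not deviate together (correlations -0.13, 0.0075, 0.12 and -0.18, none best with its own number), so the numbers were not taken as pairs. With the replicate block 49 members were lower and none higher, while 4383 of all genes tested were lower and 4433 higher. Polr1d and nhp2l1a were the members with the fewest counts, 3973 and 5412 over the 8 libraries, at 5.64 to 27.0 CPM per library. The part of depth in their results was not tested.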

Other observations

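The 14 polymerase III genes tested beside the members had log2 fold changes from -4.58 to 1.46 with TMM factors. Brf1a, a subunit of the initiation factor TFIIIB, was at 37.8, 40.1, 39.2 and 39.9 CPM in MYCN and 5.80, 6.10, 5.64 and 5.83 CPM in myrAKT (log2 fold change -2.75 ± 0.12, edgeR adjusted p = 8.3e-08). Its paralog brf1b was at 7.54, 7.47, 7.56 and 5.37 CPM in MYCN and 20.4, 20.5, 18.9 and 17.2 CPM in myrAKT, and rose (log2 fold change 1.46 ± 0.16, edgeR adjusted p = 1.8e-05). Neither gene overlapped between the groups. Every MYCN library was above every myrAKT library for 36.3% of all genes tested, and the share the other way is not given. Polr3gla, a polymerase III subunit, was at 45.6, 43.1, 47.0 and 60.7 CPM in MYCN and 2.07, 2.19, 1.95 and 1.96 CPM in myrAKT, the largest difference of the pathway genes measured (log2 fold change -4.58 ± 0.17, edgeR adjusted p = 5.0e-08). Brf1a and polr3gla were chosen after their values were seen, and the difference between the paralogs was not tested.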
